A study of Mus musculus with 6 samples.

Results

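ERK feedback genes are the genes that cells switch on when the growth factor kinases ERK1 and ERK2 are active, and many of their products then hold the same cascade in check. The set described here has 10 members of the 30386 genes in the deposited table, chosen by trimmed gene symbol. They are the dual specificity phosphatases Dusp4, Dusp5 and Dusp6, the Sprouty genes Spry1, Spry2 and Spry4, the Spred genes Spred1 and Spred2, and the ETS transcription factor genes Etv4 and Etv5. The study compared 3 libraries of the genotype p63alphaKO with 3 wild-type (WT) libraries, all from back skin epidermis of E18.5 mouse embryos. p63 is a transcription factor that keratinocytes need, encoded by Trp63, and alpha names its forms with the longest carboxy terminus. No source used here describes how the allele was made, and no label says whether the libraries of a group came from separate embryos, so p-values measure only the spread between these libraries.

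The targeted gene Trp63 was counted as a whole gene, with 143, 146 and 136 CPM (reads scaled to a library's total) in p63alphaKO libraries, against 63.9, 71.7 and 87.2 CPM in WT libraries. Every p63alphaKO library lay above every WT library, by 0.93 ± 0.19 (SE) on the log2(CPM + 1) scale on average (adjusted p = 0.0192 by limma). A count over the whole gene does not tell its forms apart. No source used here gives the removed exons, so this level does not check the genotype labels.

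In the cascade, receptors for epidermal, fibroblast and other growth factors activate Ras, Ras activates Raf, and Raf activates MEK, which phosphorylates ERK. Dusp6 protein dephosphorylates ERK in the cytoplasm, Dusp5 and Dusp4 act in the nucleus, and Sprouty and Spred proteins act upstream, on the steps between receptor and Raf. In epidermis this cascade is known for driving proliferation of basal keratinocytes.

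Values are in CPM, reads per unit of library size as the authors scaled them. Reads were taken at the 3′ ends of transcripts, so CPM are not divided by length and are compared between genotypes, not between genes. Fold changes compare p63alphaKO with WT, as differences of log2(CPM + 1), and so understate changes of low genes. A positive value means higher in p63alphaKO, and a gene is called changed at an adjusted p under 0.05 over all 7464 tested genes (limma, Benjamini-Hochberg). Tested genes had a mean of at least 10 CPM over the 6 libraries.

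The promoter windows of the phosphatase genes Dusp6 and Dusp5 are shown because both genes lay above WT in every p63alphaKO library, while their windows differ in the letters of motifs that ERK-regulated factors are known to bind. Each run holds 140 bases, from 180 to 41 before the RefSeq start site (GRCm38.p6, plus strand, chr10:99263051-99263190 for Dusp6 and chr19:53528965-53529104 for Dusp5). Capitals mark CGGAA, the core bound by ETS factors, on either strand, and matches to the CArG box, the element of serum response factor.
Dusp6: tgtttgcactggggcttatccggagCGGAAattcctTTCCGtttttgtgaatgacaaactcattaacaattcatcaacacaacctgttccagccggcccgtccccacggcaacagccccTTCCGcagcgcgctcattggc
Dusp5: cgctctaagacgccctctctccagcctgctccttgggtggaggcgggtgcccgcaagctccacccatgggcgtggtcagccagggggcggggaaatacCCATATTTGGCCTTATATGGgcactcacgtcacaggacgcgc

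The full windows, from 250 bases before to 50 after the start, were found in the RefSeq table for 7 of the 10 members, at 8 start sites. The CGGAA core stood at 3 places in the Dusp6 window, 155, 144 and 61 bases before the start, and at 1 place in that of Dusp5. It stood at 2 places in those of Spred1 and Spred2 and at 1 in that of Spry2, and 29.9% of 32851 mouse promoter windows of the same length hold it. In the Spred2 window 1 of these cores overlaps a match to the GC box GGGCGG. The members' windows held 57 to 74% G and C and 17 to 40 CG dinucleotides, against medians of 52.7% and 7 over all windows. CGGAA itself holds a CG, so the 29.9% is not matched for base composition. Dusp5 alone of the 7 genes had CArG boxes, 2 of them side by side at 82 and 72 bases before the start. Of all windows 1.63% hold at least 1 and 0.0183% at least 2. The share for at least 2 was counted for this motif only. No window of the 7 held TGANTCA, the AP-1 element (7.81% of all windows), TGACGTCA, the cAMP response element (1.79%), CCGGAAGT, a longer ETS element (3.89%), or the decamer of the p53 family (8.36%). All were searched on both strands, and a match or its lack describes these letters only.

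Dusp6 was higher in p63alphaKO epidermis and was the 1 member that passed the test. The p63alphaKO libraries had 307, 290.0 and 268 CPM of Dusp6, against 149.6, 172 and 66.4 CPM in WT libraries. All 3 p63alphaKO values lay above all WT values, the p63alphaKO libraries were close to one another, and WT replicate 3 was the lowest. The means were 288 ± 19.3 CPM in p63alphaKO and 129 ± 55.5 CPM in WT (SD, n = 3 each). The log2 fold change was 1.26 (SE 0.27, 95% interval 0.67 to 1.85, adjusted p = 0.0318 by limma), or 2.40-fold. Dusp6 (ENSMUSG00000019960) lies on chromosome 10, 99263231 to 99267489, plus strand (mm10), and no annotated exon of another gene overlaps its exons.

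Of the 6 members tested, 1 was called higher and 0 lower, where 0.469% of all tested genes were called higher, 1.18% lower and 1.65% either way. At an unadjusted p under 0.05 there were 3 higher and 0 lower, against 6.03% and 9.59% of all tested genes. Spred2, 1 of these 3, had a WT mean of 6.44 CPM and entered the test through its p63alphaKO values (mean 15.5 CPM). With edgeR 0 members were called (1.1% of all tested genes either way), and with DESeq2 Dusp6 alone was called (4.25%). The Dusp6 call needed all 3 p63alphaKO libraries (adjusted p = 0.119, 0.0897 and 0.168 by limma without replicate 1, 2 or 3), and it was lost with edgeR (0.0729), with no filter (0.0511) and with a minimum of 50 CPM (0.0608). Without WT replicate 3 the log2 fold change was 0.84 (adjusted p = 0.0167).

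**Figure D1:**
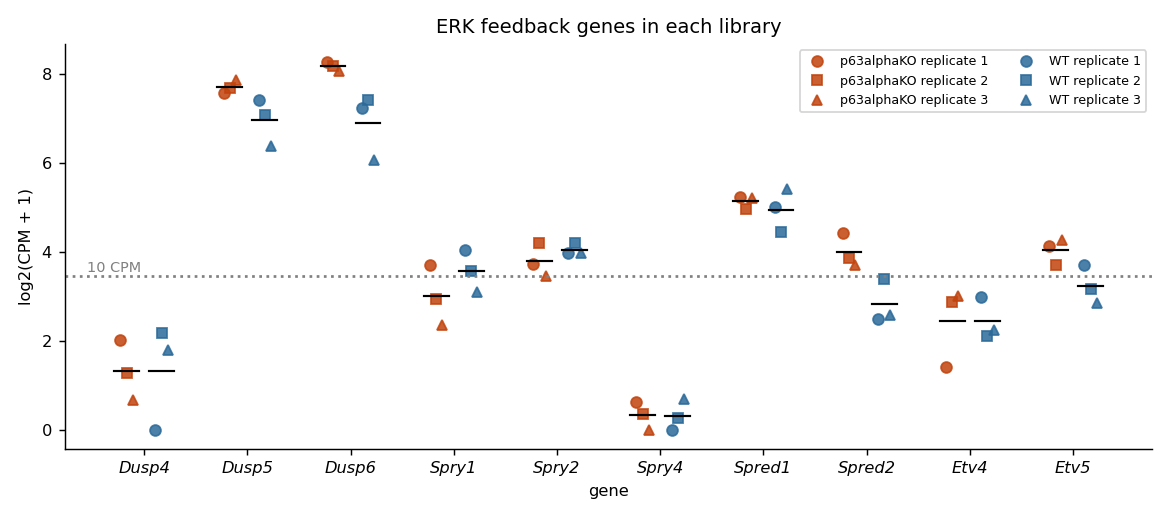
Level of each of the 10 ERK feedback genes in every library, as log2(CPM + 1), with p63alphaKO left of WT for each gene. Points are libraries, black bars are group means, and the dotted line is at 10 CPM. Dusp6, Dusp5, Spred2 and Etv5 have all 3 p63alphaKO points above all WT points.

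Dusp5, the nuclear ERK phosphatase, did not pass the test. It had 189, 204 and 231 CPM in p63alphaKO libraries, against 171, 134 and 82.2 CPM in WT libraries. The groups did not overlap, the gap between the nearest libraries was narrow, and WT replicate 3 was again the lowest. The means were 208 ± 21.6 CPM in p63alphaKO and 129 ± 44.8 CPM in WT, and the log2 fold change was 0.74 (SE 0.23, 95% interval 0.24 to 1.24, adjusted p = 0.120). Without WT replicate 1 it was called (0.98, adjusted p = 0.0357), where 1.21% of all tested genes were called higher, and without WT replicate 3 its value was 0.45. Exons of Dusp5 (chromosome 19, 53529109 to 53542431, plus strand) overlap those of the opposite-strand gene AC137853.2, and no source used here says whether counting used the strand.

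Dusp4, a nuclear phosphatase that acts on ERK and other MAP kinases, was barely detected. It had 11, 5 and 2 reads in p63alphaKO libraries (3.11, 1.46 and 0.60 CPM), against 0, 16 and 8 reads in WT libraries (0, 3.57 and 2.52 CPM). The groups overlapped, and at this depth a difference was not detectable.

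Sprouty genes, whose products block signalling from growth factor receptors to Ras and Raf, showed no called change. Spry2 had 12.4, 17.5 and 10.1 CPM in p63alphaKO libraries, against 14.8, 17.4 and 14.8 CPM in WT libraries. The groups overlapped fully, with a log2 fold change of -0.25 (SE 0.34, 95% interval -0.97 to 0.47, adjusted p = 0.788).

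Spry1 was just under the minimum for testing, at a mean of 9.52 CPM over the 6 libraries. It had 12.1, 6.70 and 4.18 CPM in p63alphaKO libraries, against 15.6, 10.9 and 7.56 CPM in WT libraries, and the groups overlapped (exact permutation test of log2(CPM + 1), two-sided p = 0.3). Its exons overlap those of Gm42922 on the opposite strand. Spry4 had 2, 1 and 0 reads in p63alphaKO libraries and 0, 1 and 2 reads in WT libraries. Both groups lay at or under the level that 3 reads give, between 0.670 and 1.17 CPM, so no fold is given.

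Of the Spred genes, whose products bind neurofibromin and through it inactivate Ras, Spred2 lay higher in every p63alphaKO library and Spred1 did not. Spred2 had 20.6, 13.7 and 12.2 CPM in p63alphaKO libraries, against 4.68, 9.60 and 5.04 CPM in WT libraries. The groups did not overlap, but the reads were few, 73, 47 and 41 in p63alphaKO libraries and 12, 43 and 16 in WT libraries. The log2 fold change was 1.18 (SE 0.44, 95% interval 0.24 to 2.11), and it did not pass the test (adjusted p = 0.204). Spred1 had 37.0, 30.6 and 36.4 CPM in p63alphaKO libraries, against 31.2, 21.0 and 41.6 CPM in WT libraries, with WT replicates 2 and 3 at either end of all 6. Its log2 fold change was 0.19 (SE 0.27, 95% interval -0.38 to 0.77, adjusted p = 0.793), and -0.06 without WT replicate 2.

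Etv5 and Etv4 encode ETS factors of the PEA3 group, whose transcription follows FGF and ERK signalling in many embryonic tissues. Etv5 had 16.7, 12.2 and 18.49 CPM in p63alphaKO libraries, against 12.1, 8.04 and 6.30 CPM in WT libraries. The groups were separated by the small step between p63alphaKO replicate 2 and WT replicate 1 (12.23 against 12.08 CPM). In these libraries 1 read stands for 0.291 and 0.390 CPM. The log2 fold change was 0.80 (SE 0.39, 95% interval -0.03 to 1.63, adjusted p = 0.342). Etv4 had 1.69, 6.41 and 7.16 CPM in p63alphaKO libraries, against 7.01, 3.35 and 3.78 CPM in WT libraries, with overlapping groups.

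In all, 4 of the 10 members lay higher in every p63alphaKO library than in any WT library, 6 overlapped, and 0 lay lower throughout. Of the 6 tested members, 4 lay higher in this way and 2 overlapped. Over all tested genes, the same separation was seen upward for 7.6% and downward for 13.4%. Spred2 and Etv5 had WT means under 10 CPM and entered the test through their p63alphaKO values, so the 6 tested members do not stand for all 10. Spred2, at a mean of 10.98 CPM, lay just inside the minimum and Spry1 just outside it. With 3 libraries against 3, an exact permutation test cannot go below p = 0.1, the value that Dusp6, Dusp5, Spred2 and Etv5 each had.

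**Figure D2:**
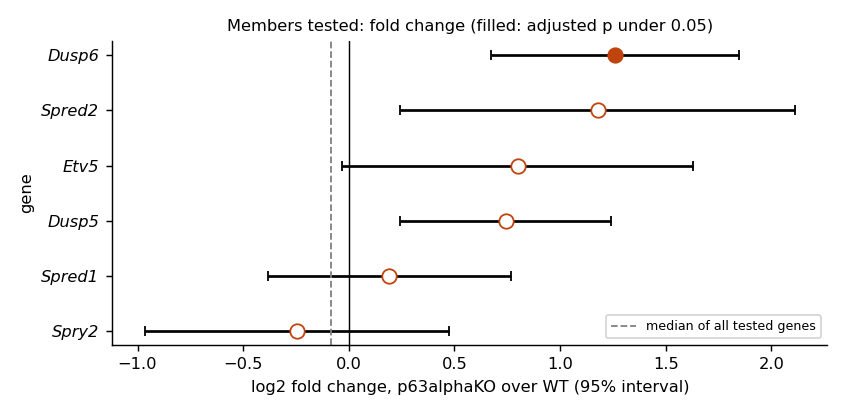
Log2 fold change, p63alphaKO over WT, of the 6 members tested, with 95% intervals from limma. The dashed line is the median of all tested genes, -0.09, and the filled point, Dusp6 at 1.26, is the 1 with an adjusted p under 0.05.

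Within a library, Dusp6 was set against each of the other 5 tested members, as the difference of their log2(CPM + 1) values. Dusp6 minus Spry2 averaged 4.36 ± 0.34 in p63alphaKO and 2.86 ± 0.66 in WT (SD, n = 3 each), a difference of 1.51 between genotypes (exact permutation test, two-sided p = 0.1, the smallest possible, adjusted p = 0.333 over 5 comparisons). The groups did not overlap for this pair. Dusp6 minus Spred1 differed between genotypes by 1.07, Dusp6 minus Dusp5 by 0.52 and Dusp6 minus Etv5 by 0.46 (exact p = 0.2, 0.2 and 0.3, each with overlap). For Spred2 the difference was 0.08 (exact p = 1). Without WT replicate 3 the difference was 0.42 for Spred1, 0.23 for Etv5 and 1.12 for Spry2. With 1 library left out, that for Spred1 lay between 0.42 and 1.58, that for Etv5 between 0.23 and 0.76 and that for Dusp5 between 0.39 and 0.72. The exact test used here cannot pass 0.05 at this size.

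The genes whose level followed Dusp6 most closely over the 6 libraries were not other members. Likeness was the mean absolute difference between log2(CPM + 1) profiles, each centred on its own mean, ranked over 7463 genes. The 5 nearest were Rhof, a small GTPase gene (0.073), Phlda1, a growth factor-induced gene (0.13), Irs2, an adaptor of the insulin and IGF1 receptors (0.14), Mfsd7b, a transporter gene (0.15), and Ier3, an immediate early gene (0.17). Of the members, Dusp5 ranked 106th (0.31), Spred2 159th (0.34) and Etv5 252nd (0.39), against 3567th for Spred1 and 4571st for Spry2. Dusp5, Spred2 and Etv5 thus lay within the nearest 1.42%, 2.13% and 3.38% of the ranked genes. These ranks use the same values that put the 3 genes above WT, so they are no separate support. Over all tested genes, 7.6% lay above WT in every p63alphaKO library. Spred2 and Etv5 also entered the ranking through their p63alphaKO values. Each of the 5 nearest genes had its lowest value in WT replicate 3, as Dusp6 did. They were chosen for likeness to the Dusp6 profile, so this shared low point follows from the choice. The profiles share libraries and depth, so likeness is a description. Phlda1, Rhof, Irs2 and Mfsd7b overlap exons of opposite-strand genes.

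**Figure D3:**
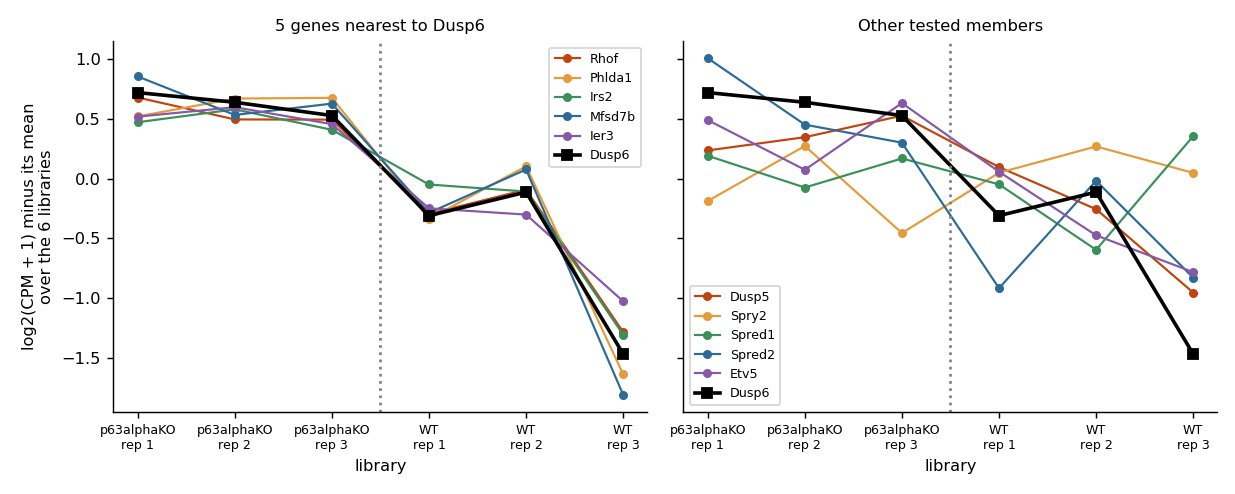
Profiles over the 6 libraries of Dusp6 (black) with the 5 genes nearest to it (left) and with the other 5 tested members (right), as log2(CPM + 1) minus its mean over the libraries. Lines only join the points of a gene. The nearest genes, chosen for their likeness to this profile, follow Dusp6 down to WT replicate 3, while Spred1 is highest in that library.

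Among 18 other genes known to be induced by ERK, 13 were tested, and 1 rose, 1 fell and 11 did not pass the test. With edgeR 1 rose (Ier3) and 0 fell, and with DESeq2 2 rose (Ier3 and Phlda1) and 1 fell (Fos). At an unadjusted p under 0.05, 6 were higher and 2 lower, against 6.03% and 9.59% of all tested genes. Log2 fold changes above 0 were seen for 11 of the 13, against 40.2% of all tested genes. Ier3, an immediate early gene linked to cell survival, had 427, 451 and 409 CPM in p63alphaKO libraries, against 250.2, 241 and 145 CPM in WT libraries. All 3 p63alphaKO libraries were higher, and the log2 fold change was 1.05 (SE 0.20, adjusted p = 0.0159). Fos, the immediate early transcription factor gene, went the other way, with 457, 349.7 and 398 CPM in p63alphaKO libraries, against 645, 723 and 616 CPM in WT libraries. Its log2 fold change was -0.72 (SE 0.16, adjusted p = 0.0335), again with no overlap. Phlda1 had a value of 1.25 (375.9 ± 22.7 CPM in p63alphaKO and 177 ± 93.0 CPM in WT, adjusted p = 0.0616 by limma). It was called with DESeq2 (adjusted p = 0.0122), without WT replicate 2 (1.61, adjusted p = 0.0135 by limma) and without WT replicate 3 (0.74, adjusted p = 0.0417 by limma).

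Ier3 was no longer called when p63alphaKO replicate 1, 2 or 3 was left out (adjusted p = 0.0798, 0.0744 and 0.0854). The call of Fos was lost in the same settings (0.0762, 0.175 and 0.166), without WT replicate 2 (0.0817), without a filter (0.0594), with a minimum of 50 CPM (0.0568), with TMM or upper quartile factors (0.0744 and 0.0837) and with edgeR (0.0876). The list's median log2 fold change was 0.84, against -0.09 for all tested genes. WT replicate 3 was the lowest of all libraries for most tested genes of this list, but not for Fos, Emp1 or Ccnd1. The list was chosen with earlier results of these data known, and the part of WT replicate 3 in its median was not tested.

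Other MAP kinase phosphatases had 0 calls with limma, edgeR and DESeq2 among 6 tested of 9. Of these 6, 2 were higher and 0 lower at an unadjusted p under 0.05 (6.03% and 9.59% of all tested genes). Dusp3, 1 of these 2, had a WT mean of 9.35 CPM and entered the test through its p63alphaKO values (mean 16.9 CPM). Dusp14 had a log2 fold change of 0.68 (411 ± 48.9 CPM in p63alphaKO and 269 ± 100.5 CPM in WT, adjusted p = 0.172). Dusp3 had a value of 0.78 (adjusted p = 0.304), and Dusp1, an immediate early phosphatase gene of wider specificity, one of -0.42 (adjusted p = 0.341). Exons of Dusp3 and Dusp1 overlap opposite-strand genes. The median of the 6, Dusp3 among them, was 0.29.

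Ras GTPase activators and other inhibitors of the cascade had 0 calls with limma, edgeR and DESeq2 among 11 tested of 14, with a median of 0.04. Of these 11, 1 was higher and 1 lower at an unadjusted p under 0.05 (6.03% and 9.59% of all tested genes). Errfi1, an inhibitor of the EGF receptor that is itself induced by growth factors, had a value of 0.56 (115.9 ± 9.73 CPM in p63alphaKO and 80.1 ± 20.9 CPM in WT, adjusted p = 0.217). Pea15a, whose product holds ERK in the cytoplasm, had a value of -0.43 and Cbl, a ubiquitin ligase for activated receptors, one of -0.22 (adjusted p = 0.303 and 0.596). Pea15a overlaps exons of Dcaf8 on the opposite strand.

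The cascade itself, from Ras to ERK and its substrate kinases, had 0 calls with limma, edgeR and DESeq2 among 17 tested genes and a median of -0.01. Of these 17, 0 were higher and 1 lower at an unadjusted p under 0.05 (6.03% and 9.59% of all tested genes). Hras had a value of -0.47 (132 ± 4.81 CPM in p63alphaKO and 186 ± 40.5 CPM in WT, adjusted p = 0.237). Mras had a value of -0.76 and Mapkapk2 one of 0.32 (adjusted p = 0.369 and 0.466).

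Among 17 receptor and adaptor genes, all tested, 0 rose and 1 fell by limma. By edgeR 0 rose and 0 fell, and by DESeq2 1 rose (Met) and 1 fell (Fgfr1). Of these 17, 2 were higher and 3 lower at an unadjusted p under 0.05 (6.03% and 9.59% of all tested genes). Fgfr1 had 10.4, 14.3 and 8.35 CPM in p63alphaKO libraries, against 38.2, 23.0 and 29.6 CPM in WT libraries, or -1.38 on the log2 scale (SE 0.32, adjusted p = 0.0448 by limma). Every p63alphaKO library was below every WT library. Exons of Fgfr1 overlap those of Gm16159 on the opposite strand, and the dermal markers described next were lower in the same libraries. The value was 0.90 for Met, the receptor of hepatocyte growth factor, and 0.60 for Egfr (adjusted p = 0.114 and 0.204 by limma). The Fgfr1 call was lost in 10 of 14 other settings, with adjusted p up to 0.196.

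**Figure D4:**
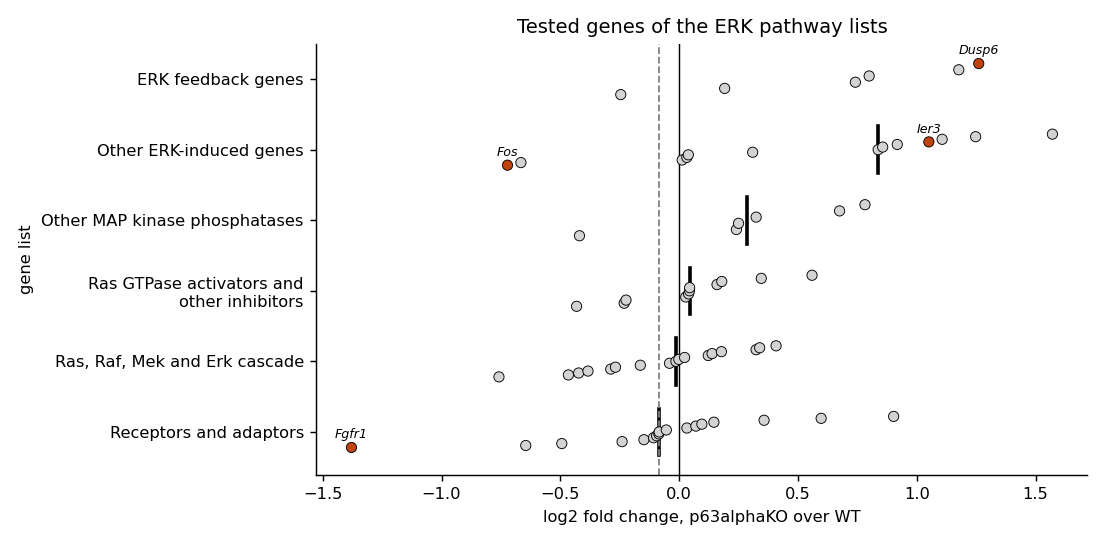
Log2 fold change, p63alphaKO over WT, of each tested gene of the ERK feedback set and of 5 further ERK pathway lists. Each point is a gene, black bars are list medians (not drawn for the feedback set), the dashed line is the median of all tested genes, and filled points are the called genes Dusp6, Ier3, Fos and Fgfr1.

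Markers of other cells differed between the genotypes in the same libraries. The keratins and other markers of basal and suprabasal keratinocytes were detected in all 6 libraries, at summed levels of 4148 to 5170.1 CPM in p63alphaKO and 2560 to 4469 CPM in WT for the 5 basal genes, Trp63 among them and all higher on average in p63alphaKO, and 107886 to 115384 CPM in p63alphaKO and 106621 to 120419 CPM in WT for the 5 suprabasal genes. The 8 dermal fibroblast markers, all lower on average in p63alphaKO, summed to 384 to 705 CPM there and to 2224 to 5081 CPM in WT. The 8 skeletal muscle markers, again all lower, summed to 49.4 to 81.5 CPM in p63alphaKO. In WT replicates 1, 2 and 3 they summed to 390, 2371 and 383 CPM. The 6 endothelial markers, of which Tek and Emcn were at 0 in p63alphaKO, summed to 2.39 to 5.53 CPM there and to 10.4 to 56.1 CPM in WT. The 6 blood markers, all lower, summed to 559 to 1766 CPM in p63alphaKO and to 1903 to 3441 CPM in WT.

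The 6 melanocyte markers were all higher on average in p63alphaKO, at 335 to 471 CPM there and 189 to 318 CPM in WT. The 6 immune cell markers summed to 5.66 to 11.6 CPM in p63alphaKO and to 8.97 to 15.1 CPM in WT, with Cd3e at 0 in all 6 libraries. WT replicate 3, which had the lowest Dusp6 and Dusp5, held 3574 CPM of dermal markers, between the other WT libraries. It also lay between them for basal keratinocyte and blood markers. It was the lowest WT library for suprabasal (106621 CPM), muscle (383 CPM, close to 390 CPM in WT replicate 1) and endothelial markers (10.4 CPM). For melanocyte (318 CPM) and immune cell markers (15.1 CPM) it was the highest WT library. In bulk tissue, fewer cells of a type and less RNA per cell cannot be told apart, and the part of these markers in the values of the ERK feedback genes was not tested.

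The scaling bears on every value here. Over all tested genes the median log2 fold change was -0.09 with CPM as deposited, and TMM and upper quartile factors moved it by 0.10 and 0.13. Relative to the median of all genes, Dusp6 lay at 1.35 under each of these scalings. A factor for a whole library moves all genes almost alike, so this equal distance is no check of the Dusp6 result. Of the genes called, 28.5% were higher with CPM as deposited, 42.5% with TMM factors and 51.9% with upper quartile factors.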

How the data were processed

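RNA from E18.5 mouse epidermis, 3 p63alphaKO and 3 WT libraries, was sequenced from transcript 3′ ends, per the labels' protocols, which name different RNA kits in different fields. STAR, HTSeq and mm10 are named in the submitters' processing notes, without versions, annotation or strand use. The values deposited by the authors are CPM, scaled to each library's total. They were whole multiples of 1 read within 0.0055 CPM for 100% of values above 0, which gave 3350442 to 3539604 reads per p63alphaKO library and 2564407 to 4474764 per WT library. Limits set by 3 reads cover counting error only.

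The test, for means of 10 CPM or more, was limma-trend on log2(CPM + 1), run with limma 3.58.1 in R 4.3.3, genotype as the only term, two-sided. The steps were tested on simulated data. Alternatives were pseudocounts of 0.5 and 5, no filter, a minimum of 50 CPM, TMM and upper quartile factors, edgeR 4.0.16 and DESeq2 1.42.0 on the recovered reads, a replicate block, and each library left out. Groups came from the sample titles. The members and lists were chosen with earlier results of these data known. Named are all members, from each list the called genes and up to 3 with the smallest p, and the 5 genes nearest to Dusp6. Positions are from GENCODE M21 (mm10), 1-based, and promoters from RefSeq (GRCm38.p6).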

Additional observations from a re-analysis of the deposited data

How the results depend on the processing

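Among the settings tried, the log2 fold change of Dusp6 lay between 0.84 and 1.52 and was called in 9 of 15, and that of Dusp5 between 0.45 and 0.98 and called in 1 of 15. Spred2, Etv5, Spry2 and Spred1 were called in 0 of 14, and Spred1 lay between -0.059 without WT replicate 2 and 0.42 without WT replicate 3. The count of all called genes was 123. It was 36 with a minimum of 50 CPM, 317 with DESeq2, and between 37 and 186 with 1 library left out. The count of called members was 1. It was 0 with no filter, with a minimum of 50 CPM and with edgeR, and between 0 and 2 with 1 library left out. Over the other ERK pathway lists 3 genes were called, against 1 with no filter, with a minimum of 50 CPM, with either scaling factor and with edgeR, 5 with DESeq2, and between 0 and 5 with 1 library left out. Dusp6 minus Spred2 differed between genotypes by 0.08, and by -0.21 to 0.41 with 1 library left out, and 0.38 with a pseudocount of 5. For these results the cause was not tested. Deviations from the group mean in libraries of equal replicate number correlated at -0.023, 0.066 and -0.11 across genes. For unequal numbers the correlations lay between -0.13 and 0.15. Deviations centred in groups of 3 constrain one another, so these values do not settle whether the libraries were paired. With the replicate block 127 genes were called, and Dusp6 had an adjusted p of 0.0103 by limma, Ier3 0.0103, Phlda1 0.0256, Epgn 0.0424, Fos 0.0567 and Fgfr1 0.0660. At this depth 10 CPM stands for 25.7 to 44.8 reads, which limits Spry1, Spry4, Dusp4 and Etv4.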

Other observations

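Relatives of the feedback genes that fell under the minimum for testing are given as reads, since their levels are low. Dusp10, a phosphatase known for acting on p38 and JNK, had 23, 29 and 36 reads in p63alphaKO libraries, against 8, 17 and 5 reads in WT libraries, and the groups did not overlap. Spred3, the remaining Spred gene, had 8, 9 and 4 reads in p63alphaKO libraries, against 0, 4 and 0 reads in WT libraries. Dusp2, a nuclear phosphatase of immune cells, had 8, 4 and 0 reads in p63alphaKO libraries, against 23, 27 and 1 reads in WT libraries. Il17rd, whose product is the ERK inhibitor Sef, had 10, 11 and 3 reads in p63alphaKO libraries, against 18, 24 and 12 reads in WT libraries. Dusp9 had 1, 20 and 22 reads in p63alphaKO libraries and 0, 20 and 9 reads in WT libraries, and Spry3 had 4, 0 and 0 reads in p63alphaKO libraries and 0 in each WT library. None of these was tested, and the limit that 3 reads set lies between 0.670 and 1.17 CPM.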
